A study of Mus musculus with 51 samples.

Results

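Described here are 10 genes that tissue macrophages express, out of 40077 genes in the deposited table, across 35 libraries of subcutaneous mouse tumors. The genes are C1qa, C1qb, C1qc, Adgre1, Csf1r, Mrc1, Cd68, Cd163, Ms4a7 and Ms4a4a. They were chosen by name, as rows of the table, with 16 libraries of cultured Myc-CaP cells as the background of tumor cells without a host. All 10 passed the filter on low counts in each of the 4 tumor experiments. The choice was made with earlier results of these data known, among them the response of Ms4a4a to TAK-243, so that comparison is described here with no test of these genes, and their levels in tumors against cells are likewise a description.

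The study asked how Uba1, which encodes the enzyme that activates ubiquitin at the start of the ubiquitin cascade, bears on immunity to tumors. B16-BL6 is a mouse melanoma line and was grown in C57BL/6 mice, with 4 tumors labelled sgUba1 and 3 control tumors of a nontargeting guide. Myc-CaP is a line from a mouse prostate cancer driven by Myc and was grown in FVB mice, with 7 tumors labelled sgUba1 and 3 control tumors of a nontargeting guide, 4 tumors with Uba1 overexpression (OE) and 3 with the empty vector, and 5 tumors from mice given the UBA1 inhibitor TAK-243 at 25 mg/kg by vein against 6 given vehicle. The mice were 6 to 8 weeks old. According to the study's methods the sgUba1 lines were grown from single cells after transfection of a CRISPR vector and puromycin selection, with Uba1 only partly lost, and the OE and empty-vector cells carried a lentivirus with blasticidin selection and a CMV promoter. Tumors were grown on both flanks and the labels do not tie a tumor to a mouse, so some may share an animal and p-values measure the spread between tumors. The cells were cultured as Myc-CaP with a control guide or sgUba1, or without and with 50 nM TAK-243 for 18 hours, each without and with 1 ng/mL IFN-γ for 18 hours, in 2 libraries per condition.

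Macrophages are phagocytes that arise from monocytes or from embryonic precursors and settle in almost every tissue, tumors included. Their survival depends on the receptor CSF1R, they bind and engulf dying cells and debris through scavenger receptors and lectins, and unlike most cells they make the C1q that starts the classical complement pathway. C1qa, C1qb and C1qc encode the A, B and C chains of C1q, which assemble together. Adgre1 encodes F4/80, the antigen long used to recognise mouse macrophages. Csf1r encodes the receptor for CSF1 and IL-34. Mrc1 encodes the mannose receptor CD206, Cd163 the scavenger receptor for complexes of haemoglobin and haptoglobin, and Cd68 a glycoprotein of lysosomes. Ms4a7 and Ms4a4a encode membrane proteins of the MS4A family, which spans the membrane 4 times and also holds the B cell antigen CD20.

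Positions are from GENCODE M21 on GRCm38. The chains of C1q lie side by side on the minus strand of chromosome 4, C1qb (ENSMUSG00000036905.8) at chr4:136880129-136886187, C1qc (ENSMUSG00000036896.5) at chr4:136889804-136893065 and C1qa (ENSMUSG00000036887.5) at chr4:136895917-136898803. There are 3616 bases between C1qb and C1qc and 2851 between C1qc and C1qa, with no annotated gene in either gap. Ms4a7 (ENSMUSG00000024672.11) lies at chr19:11321039-11336146 on the minus strand and Ms4a4a (ENSMUSG00000101389.1) at chr19:11375523-11392790 on the plus strand, so that their starts face each other across 39376 bases that hold 1 annotated gene, Gm28935. Mrc1 (ENSMUSG00000026712.3) is at chr2:14229392-14332057, Cd163 (ENSMUSG00000008845.9) at chr6:124304656-124330527, Cd68 (ENSMUSG00000018774.13) at chr11:69664213-69666153 and Adgre1 (ENSMUSG00000004730.15) at chr17:57358691-57483527.

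Promoters from these 2 neighbourhoods are shown because the chains of C1q kept nearly fixed proportions in the tumors, whereas Ms4a7 and Ms4a4a did not (below). Promoters from the RefSeq tables for GRCm38.p6 were used for 7 of the 10 genes, not for C1qa, Adgre1 and Csf1r. Of 2 windows for Ms4a7, the one at its GENCODE start is printed. Each sequence is the 250 bases before the RefSeq start, cut short where a GENCODE gene begins earlier, as it does for C1qc. Capitals mark GAGGAA, the core letters bound by PU.1, the lineage factor of macrophages, and AGGAAGT, a longer form that can overlap it, on either strand.
C1qb, chr4:136886201-136886450, minus strand: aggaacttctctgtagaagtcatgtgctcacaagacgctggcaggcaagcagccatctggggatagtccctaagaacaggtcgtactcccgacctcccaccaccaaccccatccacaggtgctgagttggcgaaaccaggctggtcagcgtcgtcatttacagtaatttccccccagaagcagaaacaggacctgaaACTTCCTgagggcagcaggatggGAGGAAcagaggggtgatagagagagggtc
C1qc, chr4:136893066-136893164, minus strand: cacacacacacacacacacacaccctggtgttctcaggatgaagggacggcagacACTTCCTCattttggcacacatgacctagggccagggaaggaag
Ms4a7, chr19:11336147-11336396, minus strand: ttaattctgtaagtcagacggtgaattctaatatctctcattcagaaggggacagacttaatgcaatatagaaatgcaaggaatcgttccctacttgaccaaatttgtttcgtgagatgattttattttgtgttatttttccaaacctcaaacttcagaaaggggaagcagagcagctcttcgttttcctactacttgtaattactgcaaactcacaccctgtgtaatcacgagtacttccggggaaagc
Ms4a4a, chr19:11375238-11375487, plus strand: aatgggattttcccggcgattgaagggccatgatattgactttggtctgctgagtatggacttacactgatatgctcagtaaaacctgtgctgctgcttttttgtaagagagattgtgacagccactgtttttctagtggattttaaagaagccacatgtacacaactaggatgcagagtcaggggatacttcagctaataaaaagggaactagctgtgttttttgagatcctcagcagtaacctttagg

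The C1qb window held GAGGAA once, 30 bases before the start, and AGGAAGT once. The C1qc window held the 2 motifs in 1 overlapping run, 193 bases before the start. Neither motif was in the Ms4a7 and Ms4a4a windows. Among the windows not printed, that of Mrc1 held GAGGAA 3 times and AGGAAGT once, that of Cd68 held GAGGAA once and that of Cd163 held neither. In all, 4 of 8 windows of these genes, which count 2 for Ms4a7, held GAGGAA and 3 held AGGAAGT. Of 32851 mouse promoter windows of 250 bases, 23.3% held GAGGAA, 7.69% held AGGAAGT and 27.3% held either, so a match or its absence describes these letters only.

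Total counts ran from 8652097 to 35693203 per tumor and from 12860987 to 38032395 per cell library. Library pairs within a group differed beyond counting error in every case, the chi-square statistic being at least 4.31 times its degrees of freedom among tumors. Uba1, the targeted gene, was 208 to 247 CPM (a count divided by its library's scaled total) in the B16-BL6 sgUba1 tumors and 410, 414 and 455 in their controls. In the Myc-CaP tumors labelled sgUba1 it was 197, 202 and 211 CPM in replicates 1 to 3 but 361 to 383 CPM in replicates 4 to 7, against 320, 325 and 337 CPM in the controls. In these 4 libraries Uba1 RNA was thus not below the controls, which does not show whether the protein was lost. The tests of the 10 genes and of the named list genes on that group are given with and without these 4 libraries. Uba1 was 631 to 747 CPM with OE and 278 to 310 CPM with the empty vector. In the TAK-243 experiment, in which the protein is inhibited, it was 283 to 368 CPM against 311 to 379 CPM. The melanocyte gene Pmel averaged 3683 CPM in the B16-BL6 sgUba1 tumors and 4068 CPM in their controls. Krt8, a keratin of simple epithelia, averaged 81.8 CPM over all Myc-CaP tumors labelled sgUba1, replicates 4 to 7 included, and 139 CPM in their controls. The share of tumor cells was not tested. Control replicate 2 of the Myc-CaP sgUba1 experiment and OE replicate 1 stood apart from their groups in several of the 10 genes, as described beside those results. The chi-square statistic was 8.96 to 20.8 times its degrees of freedom within labelled replicates 1 to 3 and within 4 to 7. Between these 2 sets it was 55.9 to 79.4 times. It also reached 91.8 times between vehicle tumors, whose total counts were higher. For control replicate 2 it was 76.6 and 56.8 times against the other controls, which stood at 12.2.

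In the cultured cells the macrophage genes were absent or nearly so. C1qb, C1qc, Adgre1, Ms4a7 and Ms4a4a had 0 counts in 16 of 16 libraries, C1qa had 1 count in 1 library, and Mrc1 had at most 3 counts in any. Cd163 had at most 18.3 estimated counts, 0.211 TPM (transcript abundance scaled for gene length and library size). Csf1r had a median of 1.08 TPM and a highest value of 3.2 TPM. Csf1r (ENSMUSG00000024621.16) lies at chr18:61100598-61132149, and its transcripts share 14.9% of their 31-base words with other genes, nearly all with Hmgxb3, which overlaps it on the opposite strand and stood at a median of 17.0 TPM in these cells. The other members share 0% to 1.42%. Whether the counting used strand is not given in the sources used here, so low values of Csf1r are uncertain. Cd68 was the one member clearly present without a host, at a median of 3.71 TPM and up to 9.25 TPM. The part of the tumor cells in the Cd68 of tumors was not tested.

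In tumors all 10 genes were detected in all 35 libraries. Compared in TPM, the order of their medians was C1qa (62.4 TPM), C1qb (44.7 TPM), C1qc (37.2 TPM), Cd68 (29.6 TPM), Csf1r (15.6 TPM), Mrc1 (12.2 TPM), Ms4a7 (9.91 TPM), Adgre1 (7.57 TPM), Ms4a4a (5.18 TPM) and Cd163 (1.31 TPM). The chains of C1q together made up 44.9% to 70.7% of the summed TPM of the 10 genes (median 64.2%), with median shares of 27.3%, 19.7% and 17.2%. Cd163 had the smallest share, with a median of 0.688%, and also the widest range, 33.1-fold from the lowest to the highest tumor. The lowest, control replicate 1 of the Myc-CaP sgUba1 experiment at 0.162 TPM, lay within the range of the cultured cells (0.0451 to 0.211 TPM), so this range rests on a value at the level of cells without a host. Ms4a7 ranged 30.8-fold and Ms4a4a 22.3-fold, whereas the other 7 genes ranged 5.39-fold (Csf1r) to 10.6-fold (Adgre1). In bulk tissue a lower level may mean fewer macrophages or less RNA of the gene in each, and these cannot be told apart.

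**Figure D1:**
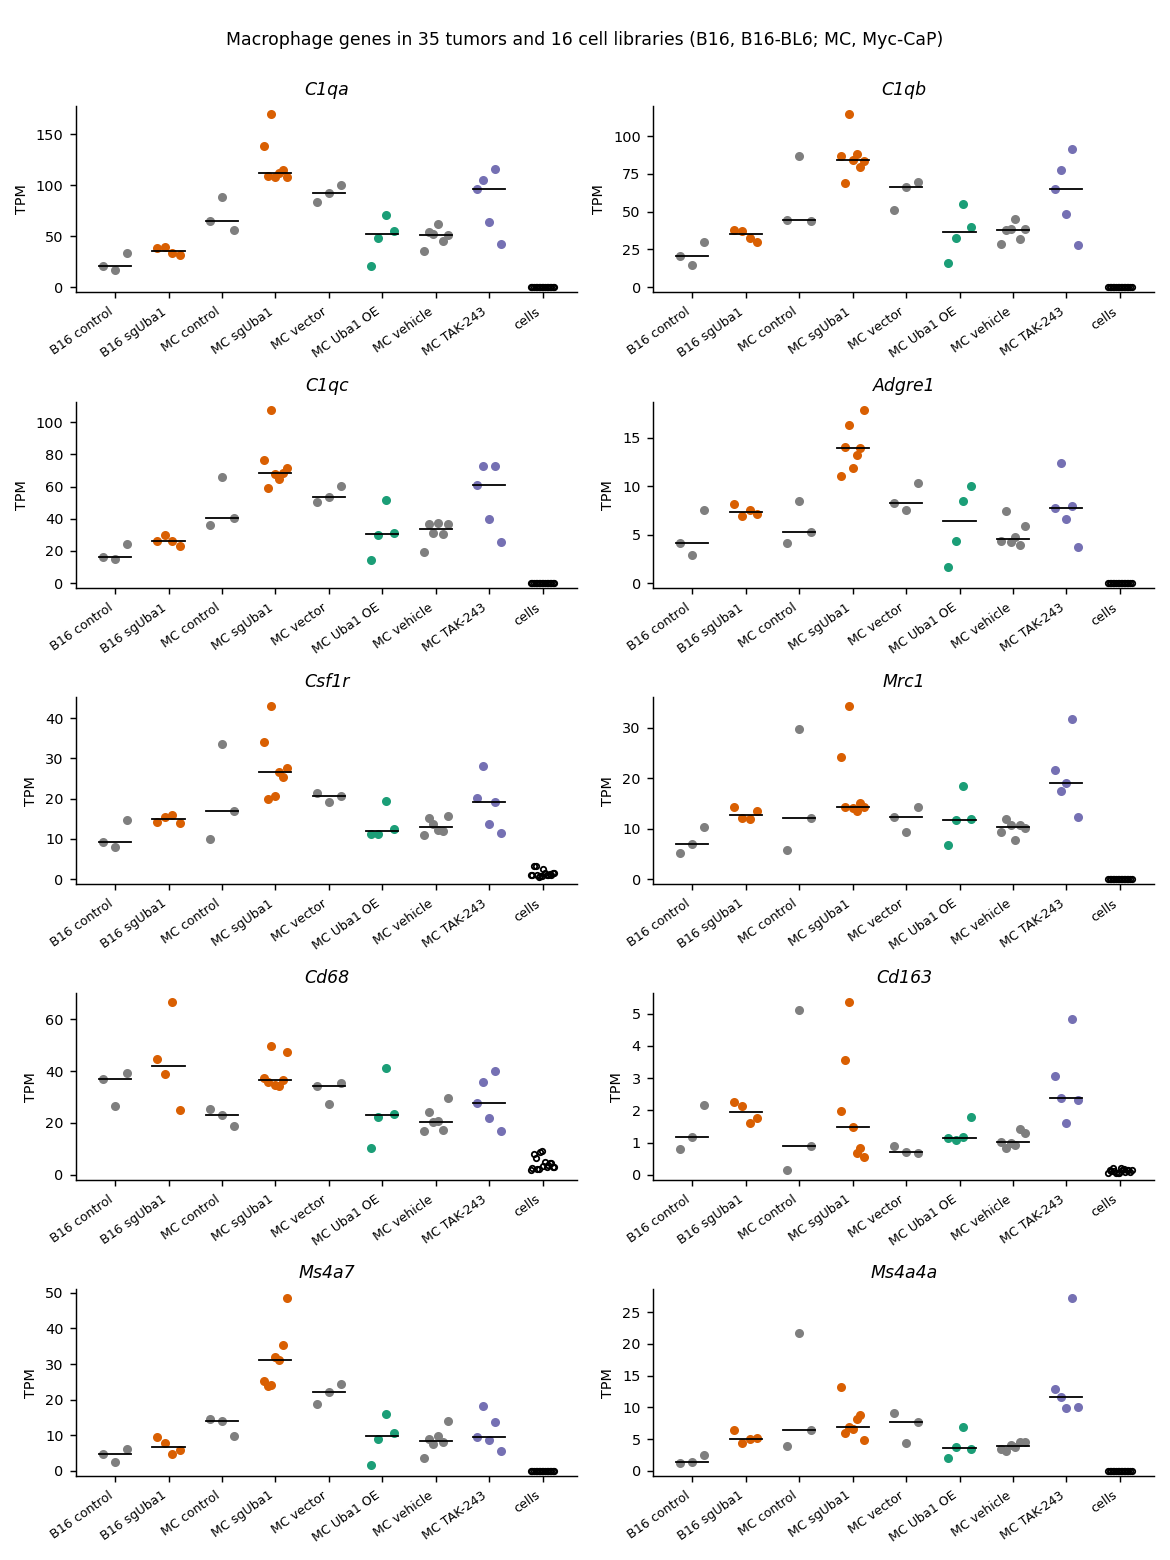
Level in TPM of each macrophage gene by group, with 1 point per library and a line at the group median. Tumors of the B16-BL6 (B16) and Myc-CaP (MC) models stand beside 16 libraries of cultured cells, where only Cd68, Csf1r and Cd163 rise visibly above 0.

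With all 7 libraries, Myc-CaP tumors labelled sgUba1 had the highest median for 6 of the 10 genes. C1qa was 108 to 170 TPM there, with a median of 112 TPM, followed by the TAK-243 tumors at 96.9 TPM and the empty-vector tumors at 92.7 TPM. The B16-BL6 controls had the lowest C1qa, with a median of 20.5 TPM and a range of 16.6 to 33.2 TPM. Each of these groups overlapped its neighbour in the order of C1qa. Adgre1 (11.1 to 17.8 TPM) in the Myc-CaP sgUba1 tumors lay above the range of the group next by median, the empty-vector tumors (7.52 to 10.3 TPM), but overlapped the TAK-243 tumors, which reached 12.4 TPM. In replicates 1 to 3 alone, with low Uba1, C1qa was 109, 139 and 170 TPM and Adgre1 11.1, 14.0 and 16.3 TPM, also above the empty-vector tumors. Ms4a7 also had its highest median in the labelled tumors, 31.2 TPM with all 7, against 4.67 TPM in the B16-BL6 controls. The range of the empty-vector tumors (18.8 to 24.4 TPM) lay above that of the Myc-CaP controls (9.76 to 14.6 TPM). The lowest labelled value of Ms4a7, 23.8 TPM, was among replicates 1 to 3 and lay within the empty-vector range.

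Other members had another order. Mrc1, Cd163 and Ms4a4a had their highest medians in the TAK-243 tumors, at 19.1, 2.39 and 11.7 TPM. For Mrc1 and Cd163 this order holds only with labelled replicates 4 to 7 kept in the Myc-CaP sgUba1 group. Labelled tumors reached 34.3 TPM of Mrc1 and 5.37 TPM of Cd163, above the TAK-243 maxima of 31.8 and 4.83 TPM. Ms4a4a in the TAK-243 tumors (9.86 to 27.3 TPM) lay above the empty-vector tumors, next by median (4.45 to 9.16 TPM). It overlapped the Myc-CaP sgUba1 tumors and their controls, which reached 13.3 and 21.7 TPM. Cd68 was highest in B16-BL6, with medians of 41.8 TPM in the sgUba1 tumors and 36.8 TPM in their controls, although the C1q genes were lowest there. Experiments with different hosts and library series are set side by side here only as deposited TPM, with no test between them.

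The ratios between members show how far the genes moved as a block. Across 35 tumors the ratio of C1qb to C1qa in TPM stayed between 0.613 and 0.998, a 1.63-fold range, while C1qa itself ranged 10.2-fold. The ratio of C1qc to C1qb had a 1.53-fold range and that of C1qc to C1qa a 1.66-fold range. Within a group the ratio of C1qb to C1qa spanned 1.06-fold to 1.42-fold. It was 0.88 to 0.998 in the 7 B16-BL6 tumors and 0.613 to 0.973 in the 28 Myc-CaP tumors.

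The other members kept looser ratios to C1q, taken as the geometric mean of its 3 chains. The range was 3.04-fold for Adgre1, 3.12-fold for Csf1r, 3.97-fold for Mrc1, 7.47-fold for Cd68, 5.92-fold for Ms4a4a, 6.06-fold for Ms4a7 and 22.2-fold for Cd163, whose lowest ratio was again in Myc-CaP control replicate 1. Cd68 to C1q was 0.892 to 2.18 in B16-BL6 and 0.291 to 0.706 in Myc-CaP tumors, without overlap. Ms4a7 to Ms4a4a, neighbours on chromosome 19, ranged from 0.504 in a TAK-243 tumor to 10.1 in Myc-CaP labelled sgUba1 replicate 7, 20.0-fold. In that tumor Uba1 was 383 CPM, above the controls. Outside labelled replicates 4 to 7 the highest was 4.98, in an empty-vector tumor, and labelled replicates 1 to 3 were 1.89, 3.96 and 3.46.

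**Figure D2:**
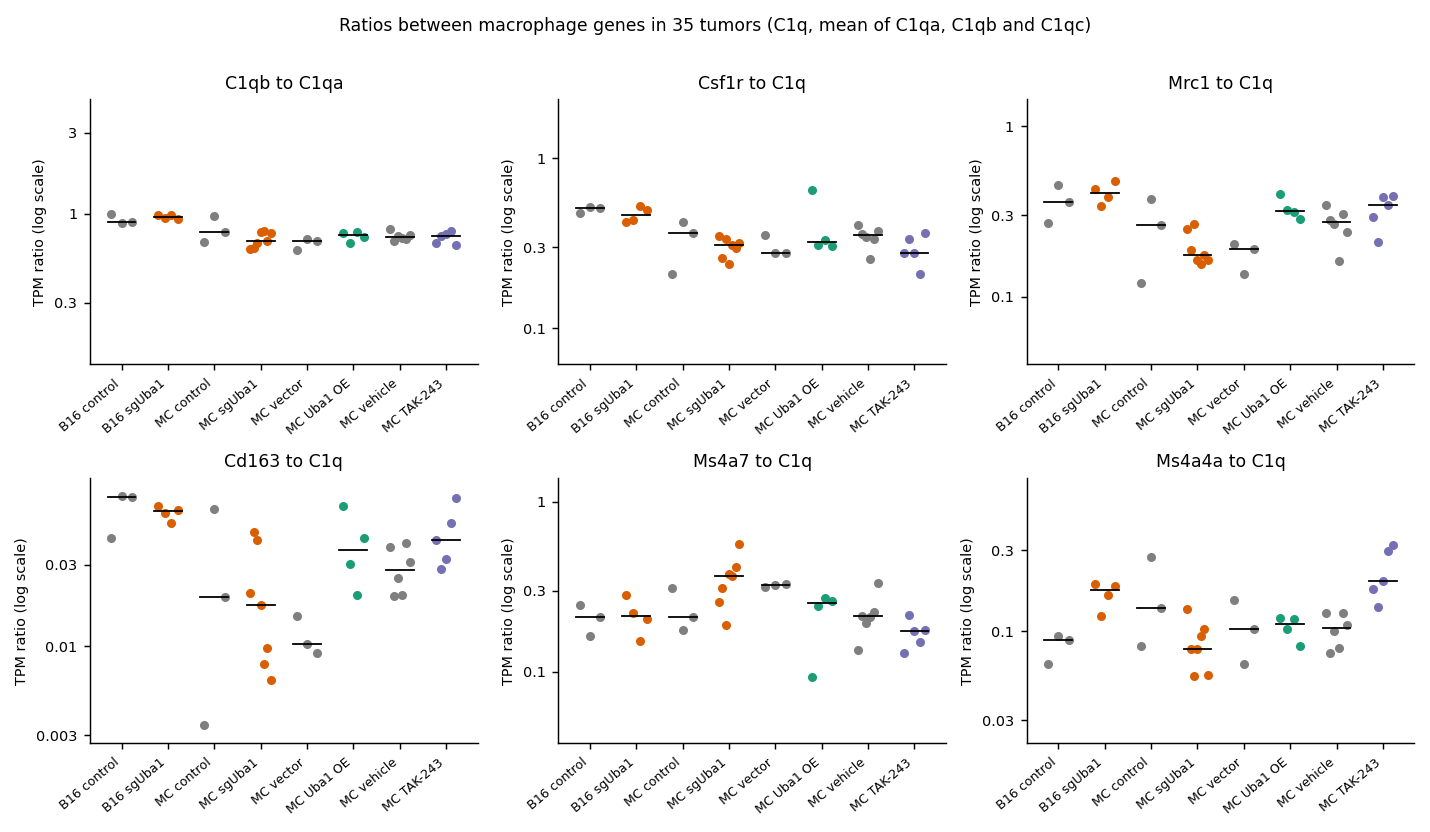
Ratios of TPM between macrophage genes in each of 35 tumors on a log axis of the same span in every panel, with lines at group medians (B16, B16-BL6; MC, Myc-CaP). The ratio of C1qb to C1qa stays within 0.613 to 0.998, whereas Cd163 to C1q spans 22.2-fold and Ms4a4a to C1q is highest in a TAK-243 tumor.

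In B16-BL6 tumors, which asked whether less Uba1 in melanoma cells goes with other immune infiltrates, all 10 genes had a fitted log2 fold change above 0 in the sgUba1 tumors, and 1 passed the test. Among all genes tested 52.6% had a log2 fold change above 0. Ms4a4a rose from 0.53, 0.636 and 1.08 CPM in the controls to 1.85, 2.15, 2.17 and 2.59 CPM in the sgUba1 tumors. The groups did not overlap. Its log2 fold change, here and below with the standard error (SE) of the fit, was 1.55 (SE 0.264, n = 3 and 4). The adjusted p from edgeR, corrected over all genes tested by the Benjamini-Hochberg method, was 0.030. Of 17539 genes, 0.268% were called higher. Without any 1 of 5 of the 7 tumors Ms4a4a no longer passed (adjusted p up to 0.193), with log2 fold changes of 1.36 to 1.90 over all fits that left out 1 tumor. The call was also lost in the fit of all 35 tumors (1.52, adjusted p = 0.227, edgeR) and with the replicate number as a block (1.57, adjusted p = 0.0752, edgeR).

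Mrc1 and Csf1r also separated the groups without passing the test. Mrc1, the mannose receptor, was 19.2, 26.8 and 37.4 CPM in the controls and 43.9, 44.4, 47.9 and 49.7 CPM in the sgUba1 tumors. Its log2 fold change was 0.74 (SE 0.178, adjusted p = 0.107, edgeR). Csf1r was 12.8, 14.3 and 20.7 CPM against 21.3, 22.1, 23.8 and 26.7 CPM, with a log2 fold change of 0.56 (SE 0.158, adjusted p = 0.153, edgeR). With Ms4a4a these make 3 of 10 genes with no overlap in the upward direction, beside 7.29% of all genes tested.

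The chains of C1q overlapped through a single control. C1qa was 9.89, 11.9 and 18.9 CPM in the controls and 17.9, 19.4, 20.7 and 22.7 CPM in the sgUba1 tumors, where control replicate 4 lay above the lowest sgUba1 tumor. C1qb and C1qc had log2 fold changes of 0.64 and 0.48 and the same control at the top. Adgre1, Cd163 and Ms4a7 had log2 fold changes of 0.48, 0.45 and 0.61 with adjusted p of 0.348, 0.429 and 0.381 (edgeR). Single controls moved these values, since without control replicate 4 they were 0.89, 0.88 and 0.92, without control replicate 2 Adgre1 and Ms4a7 were 0.25 and 0.28, and without control replicate 1 Cd163 was 0.19. Cd68, at 17.1 to 47.9 CPM, was the most scattered for its level within the sgUba1 tumors. Its log2 fold change was 0.31 (SE 0.278), and -0.0012 without sgUba1 replicate 3.

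The median log2 fold change of the 10 genes was 0.57, beside 0.01 over all genes. Without control replicate 4, 7 of the 10 were called (C1qa, C1qb, C1qc, Adgre1, Csf1r, Mrc1 and Ms4a4a), beside 1.17% of all genes in either direction, and the median was 0.89. Without control replicate 1 or 2, none was called by edgeR (4 had an unadjusted p under 0.05, beside 10.4% and 9.51% of all genes). With all tumors 6 had one, beside 16.3% of all genes. Without sgUba1 replicate 1, 2 or 3 none was called either (6 had an unadjusted p under 0.05, beside 12.8% to 16.1% of all genes). DESeq2 called 4 of the 10 with all tumors, beside 3.03% of all genes. The count in this experiment rests on which tumors are present. Control replicate 4 also carried skeletal muscle genes, whose sum was 89.2 CPM there and 7.91 and 8.07 CPM in the other two controls, against 8.09 to 324 CPM in the sgUba1 tumors, and their part in the result was not tested.

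In Myc-CaP tumors 9 of the 10 genes had a fitted log2 fold change above 0 in the libraries labelled sgUba1, as had 50.1% of all genes, and 4 passed the test, Adgre1, Ms4a7, Cd68 and C1qa. Among 16202 genes, 1.15% were called higher and 5.54% did not overlap in that direction. All 7 tumors lay above all 3 controls in each of the 4. Adgre1, the F4/80 gene, was 8.59, 10.7 and 13.3 CPM in the controls and 15.9 to 30.0 CPM in the labelled tumors, with a median of 24.2 CPM. Its log2 fold change was 1.15 (SE 0.212, adjusted p = 0.0276, edgeR). Ms4a7 was 6.03, 7.81 and 9.06 CPM in the controls, with a log2 fold change of 1.30 (SE 0.300, adjusted p = 0.0467, edgeR). Its call was lost in limma-voom (adjusted p = 0.0671), without the filter on low counts (adjusted p = 0.0537, edgeR) and in 8 of the 10 fits that left out 1 tumor. The calls of C1qa, Adgre1 and Cd68 were each lost in 6 of those fits. With the replicate number as a block all 4 calls were lost (adjusted p of 0.234 to 0.257, edgeR). The log2 fold changes were then 0.88 for C1qa, 0.96 for Adgre1, 0.75 for Cd68 and 0.77 for Ms4a7.

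Ms4a7 differed within the labelled group. It was 12.1, 13.0 and 13.6 CPM in replicates 1 to 3, where Uba1 was low, and 20.5, 21.2, 21.3 and 29.8 CPM in replicates 4 to 7, where Uba1 was above the controls. Cd68 rose from 12.8, 14.9 and 17.3 CPM to 22.5 to 33.5 CPM (log2 fold change 0.83, SE 0.159, adjusted p = 0.030, edgeR), and C1qa from 31, 36.7 and 47.2 CPM to 55.9 to 86.1 CPM (0.82, SE 0.158, adjusted p = 0.030, edgeR). C1qb and C1qc had log2 fold changes of 0.59 and 0.65 with adjusted p of 0.137 and 0.0924 (edgeR). DESeq2 called 5 of the 10, beside 11.5% of all genes, C1qc among them (adjusted p = 0.0230). Each of the 2 had all 7 labelled tumors above the control mean, with an overlap through control replicate 2, without which C1qb was 0.95.

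Without replicates 4 to 7 none of the 10 genes was called by edgeR (5 had an unadjusted p under 0.05, beside 18.9% of all genes, and 6 with all tumors, beside 23.7%), with adjusted p of 0.134 for C1qa, 0.149 for Adgre1, 0.137 for Cd68 and 0.137 for Ms4a7. The log2 fold changes were then 0.87, 0.97, 0.75 and 0.76. C1qb and C1qc had 0.52 and 0.66 (adjusted p of 0.384 and 0.262, edgeR). Mrc1, Csf1r, Cd163 and Ms4a4a had 0.52, 0.42, 0.78 and -0.37 (adjusted p of 0.660 to 0.792, edgeR), beside 0.23, 0.44, 0.01 and -0.41 with all 7 tumors. The median over the 10 genes was 0.71, beside 0.62 with all 7 tumors. No gene was called either without control replicate 3 (5 had an unadjusted p under 0.05, beside 17.6% of all genes) or without any 1 of the labelled replicates 4 to 7 (6 had one, beside 19.9% to 20.4% of all genes).

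The values of Mrc1, Csf1r, Cd163 and Ms4a4a moved with single controls. In control replicate 2 Mrc1 was 99.2 CPM against 20.3 and 42.5 CPM in the other two controls. Csf1r was 62.6 CPM there against 16.8 and 29.6 CPM. Cd163 was 13.8 CPM there against 0.429 and 2.57 CPM, and Ms4a4a was 8.66 CPM against 1.63 and 2.65 CPM. This library thus had the highest level of the controls in 9 of the 10 genes, all but Cd68.

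With all controls Ms4a4a had a log2 fold change of -0.41 (SE 0.450, adjusted p = 0.617, edgeR), and without control replicate 2 it was 0.57. Mrc1 moved from 0.23 to 1.0, Csf1r from 0.44 to 1.07 and Cd163 from 0.01 to 1.87 in the same step. None of the 10 was called by edgeR without that library (8 had an unadjusted p under 0.05, beside 15.1% of all genes), with 2 controls left, and the median was 1.0. Without control replicate 1 the log2 fold changes were -0.17 for Mrc1, 0.09 for Csf1r, -0.55 for Cd163 and -0.81 for Ms4a4a. In the labelled tumors Cd163 was itself split, at 5.02, 9.38 and 14.0 CPM in replicates 1 to 3 and 1.60 to 4.51 CPM in replicates 4 to 7.

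**Figure D3:**
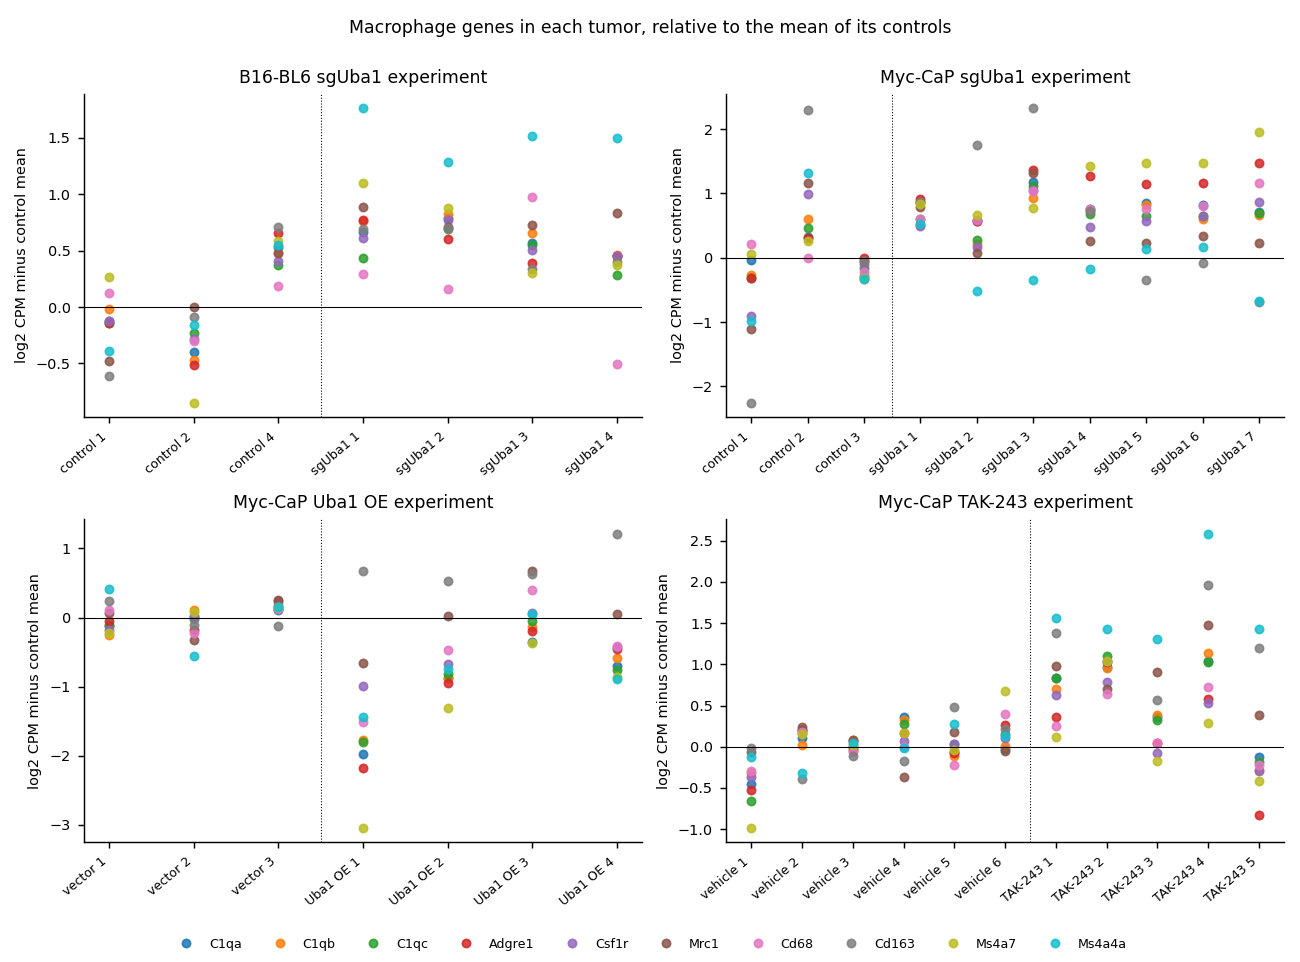
Log2 CPM of each macrophage gene in each tumor minus the mean of its control group, 1 panel per experiment with controls left of the dotted line. Control 2 of the Myc-CaP sgUba1 experiment is high in Cd163, Ms4a4a, Mrc1 and Csf1r, OE 1 is the lowest tumor of its panel in 9 of the 10 genes, and Ms4a4a is high in all TAK-243 tumors.

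The difference of the sgUba1 effect between the models was tested as an interaction, Myc-CaP minus B16-BL6, in 1 fit. None of the 10 genes passed in edgeR, 1 had an unadjusted p under 0.05 (18.3% of 17513 genes did) and 0 passed in limma-voom, beside 1.52% of all genes called in either direction by edgeR. DESeq2 called 1, Ms4a4a, beside 8.29% of all genes. The largest difference was that of Ms4a4a, -1.94 on the log2 scale (95% interval -3.21 to -0.67, adjusted p = 0.108, edgeR). Without Myc-CaP control replicate 2 it was -0.95, and without Myc-CaP control replicate 1 it was -2.33 and passed (adjusted p = 0.0273, edgeR), beside 3.67% of all genes. For C1qa the interval of the difference was -0.30 to 0.81, and for C1qb -0.69 to 0.63, so the sizes of these differences are only loosely bounded. Without sgUba1 replicates 4 to 7 the difference was -1.91 for Ms4a4a (adjusted p = 0.177, edgeR) and 0.31 for C1qa, and none passed (1 had an unadjusted p under 0.05, beside 17.6% of all genes).

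Uba1 overexpression was the opposite manipulation in Myc-CaP. Compared with the empty vector, 8 of the 10 genes had a fitted log2 fold change below 0, while 50.4% of all genes had one above 0, and none passed the test in edgeR, DESeq2 or limma-voom. At an unadjusted p under 0.05, 4 of the 10 and 18.2% of 14853 genes passed in edgeR, and 0.0269% of genes were called at all. In DESeq2 6 of the 10 had an unadjusted p under 0.05, beside 19.1% of all genes, and 5.17% of all genes were called. The median log2 fold change of the 10 was -0.74. Ms4a7 had the lowest, -1.14 (SE 0.480, adjusted p = 0.259, edgeR), at 10.3, 12.8 and 13.4 CPM with the empty vector and 1.29, 4.78, 6.53 and 9.29 CPM with OE.

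C1qa was 45.5, 50.4 and 53.6 CPM with the empty vector and 12.5, 26.9, 30.6 and 39.0 CPM with OE, with a log2 fold change of -0.87 (SE 0.309, adjusted p = 0.211, edgeR). Adgre1 was 15.2, 16.6 and 20.3 CPM against 3.67, 8.87, 12.5 and 15 CPM. In Ms4a7, C1qa and Adgre1 every OE tumor lay below every empty-vector tumor, which makes 3 of 10 genes beside 10.1% of all genes. C1qb and C1qc had log2 fold changes of -0.74 and -0.73, and Ms4a4a of -0.75, which was -1.17 without OE replicate 3 and -0.40 without OE replicates 1 and 2.

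Cd163 went the other way. It was 1.90, 1.93 and 2.51 CPM with the empty vector and 3.12, 3.34, 3.47 and 5.14 CPM with OE, with no overlap, a log2 fold change of 0.82 (SE 0.258) and an adjusted p of 0.175 (edgeR). Beside it, 10.7% of all genes separated upward. Mrc1 had a log2 fold change of 0.08 (SE 0.282), with a 95% interval of -0.57 to 0.72.

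OE replicate 1 had the lowest level of its group in 9 of the 10 genes. Without it the median log2 fold change was -0.50, and that of Cd68 was -0.11, beside -0.36 with all tumors and -0.75 without OE replicate 3. OE replicates 1 and 2 also held the highest levels of a list of 8 skeletal muscle genes, whose sum was 7.59 to 591 CPM with OE and 7.06 to 11.4 CPM with the empty vector. Without these 2 tumors the median of the 10 was -0.33, the log2 fold change was -0.51 for C1qa and -0.60 for Ms4a7, and their adjusted p in edgeR were 0.131 and 0.221. C1qb, C1qc, Adgre1 and Csf1r were then -0.34, -0.35, -0.33 and -0.16, beside -0.74, -0.73, -0.79 and -0.46 with all tumors. Mrc1, Cd68 and Cd163 were above 0, at 0.39, 0.05 and 0.99. The part of muscle in the lower levels was not tested beyond this. Other lists also differed between the groups without overlap. The 6 pan-leukocyte genes summed to 42.8 to 152 CPM with OE and 160 to 180 CPM with the empty vector, the 12 T and NK cell genes to 6.17 to 12 CPM against 17.4 to 23.9 CPM, and the 7 dendritic cell genes to 5.48 to 8.25 CPM against 9.67 to 12.1 CPM. The keratinocyte list summed to 240 to 1151 CPM with OE and 40.7 to 148 CPM with the empty vector, with 5 of its 7 genes at 0, among them Krt5 and Lor. Their part in the lower levels was not tested.

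The effects of OE and of the sgUba1 label differed for 5 of the 10 genes when tested as an interaction, OE minus sgUba1, beside 4.48% of 16502 genes called in that direction. The difference was -2.44 for Ms4a7 (95% interval -3.68 to -1.20, adjusted p = 0.0174, edgeR). For Adgre1 it was -1.93 (adjusted p = 0.0149, edgeR) and for C1qa -1.68 (adjusted p = 0.00926, edgeR). C1qc and C1qb differed by -1.38 and -1.33 with adjusted p of 0.0372 and 0.0458 (edgeR). Cd68 differed by -1.18 and missed the threshold in edgeR (adjusted p = 0.0653) but passed in DESeq2 (adjusted p = 0.0281), which called 6 of the 10, beside 15.5% of all genes.

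C1qa, Adgre1 and Ms4a7 passed in each fit that left out 1 of the 17 tumors, while C1qb and C1qc did not pass in 13 and 9 of these fits. Without sgUba1 replicates 4 to 7, C1qa alone passed (-1.74, adjusted p = 0.0277, edgeR), beside 9.2% of all genes in either direction, with Adgre1 at an adjusted p of 0.0531 and Ms4a7 at 0.0638. Without OE replicates 1 and 2, 3 passed (C1qa, Adgre1 and Ms4a7), beside 2.5% of all genes. The interval for Ms4a4a ran from -1.77 to 1.09 and for Mrc1 from -1.36 to 1.06.

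TAK-243, the small-molecule inhibitor of UBA1, was compared with vehicle in 5 and 6 tumors. All 10 genes had a fitted log2 fold change above 0 with TAK-243, as had 52.4% of all genes, with a median log2 fold change of 0.65 beside 0.01 over all genes. Since the genes were chosen with this comparison known, no count of called genes among them is given. Ms4a4a was 1.26 to 1.93 CPM with vehicle (median 1.60 CPM) and 4.01, 4.38, 4.39, 4.82 and 9.84 CPM with TAK-243. The log2 fold change was 1.78 (SE 0.235).

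Cd163 and Mrc1 also had no overlap between the groups. Cd163 was 2.33 to 4.31 CPM with vehicle and 4.57, 6.37, 7.10, 8.06 and 12.2 CPM with TAK-243, with a log2 fold change of 1.29 (SE 0.231), which was 0.83 on log2(TPM + 1) with limma. Mrc1 was 27.4 to 41.7 CPM with vehicle and 46.1, 57.3, 66.3, 69.5 and 98.2 CPM with TAK-243, with a log2 fold change of 0.92 (SE 0.169).

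The other 7 genes overlapped. C1qa was 19.9 to 35 CPM with vehicle (median 27.6 CPM) and 25, 34.8, 48.6, 53.2 and 55.9 CPM with TAK-243, and C1qa, C1qb and C1qc had log2 fold changes of 0.66, 0.65 and 0.67. Csf1r, Adgre1 and Cd68 had log2 fold changes of 0.36, 0.34 and 0.31. Without TAK-243 replicate 2 Csf1r and Adgre1 were 0.24 and 0.11, and without replicate 4 Cd68 was 0.19. Without replicate 5 Adgre1 was 0.53. Ms4a7 had 0.19 (SE 0.291), and -0.10 without TAK-243 replicate 2. TAK-243 replicate 5 was the lowest of its group in 8 of the 10 genes, in Adgre1 at 4.98 CPM below every vehicle tumor, but had 4.39 CPM of Ms4a4a and 7.10 CPM of Cd163.

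**Figure D4:**
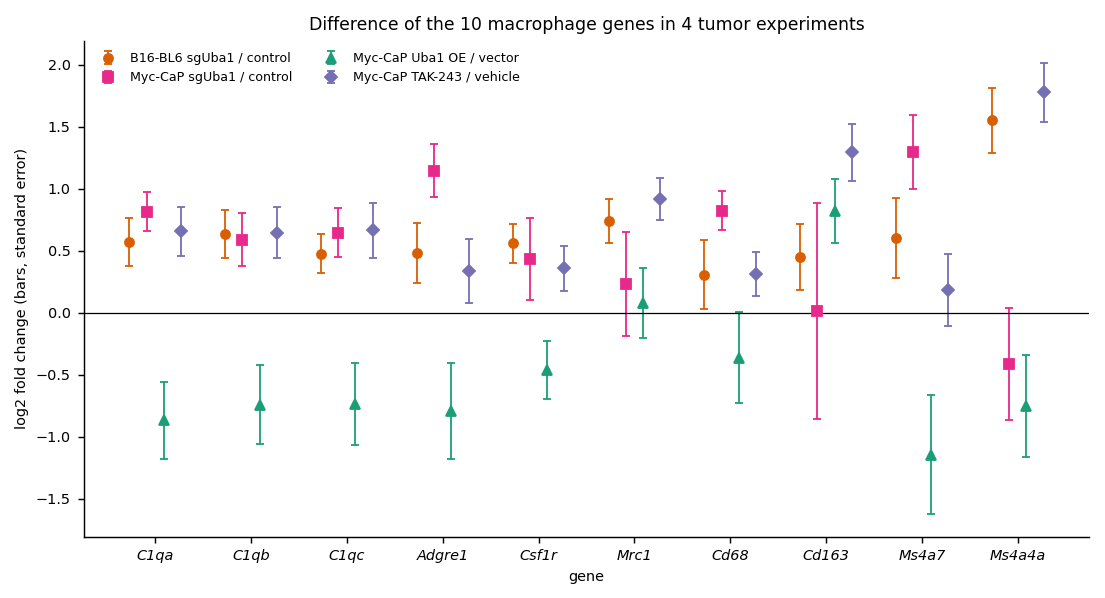
Log2 fold change of each macrophage gene in the 4 tumor experiments, with bars of 1 SE. The B16-BL6 and TAK-243 values lie above 0 for all 10 genes, the OE values lie below 0 for 8, and Ms4a4a reaches 1.55 and 1.78 in those experiments.

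Set side by side, Ms4a4a had log2 fold changes of 1.55 in B16-BL6, 1.78 with TAK-243 and -0.41 in the Myc-CaP sgUba1 experiment, where it was 0.57 without control replicate 2. Ms4a7 had 0.61, 0.19 and 1.30 in the same order, the last being 0.76 without labelled replicates 4 to 7. Their ratio in TPM was 0.925 to 1.80 in the B16-BL6 sgUba1 tumors and 1.74 to 3.82 in their controls. It was 0.504 to 1.55 with TAK-243 and 1.05 to 3.06 with vehicle. With the Myc-CaP sgUba1 label it was 1.89 to 10.1 (median 3.96), against 0.645 to 3.76 (median 1.53) in the controls. In labelled replicates 1 to 3, with low Uba1, it was 1.89, 3.96 and 3.46, and in replicates 4 to 7 it was 3.85 to 10.1. With OE it was 0.778 to 3.18, against 2.06 to 4.98 with the empty vector. The groups overlapped in all 4 experiments. Neither these ratios nor the difference between the 2 genes was tested.

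The related genes of macrophage biology were followed through lists written by hand. Among regulators of the lineage, which include Csf1, Il34 and Spi1, the gene of PU.1, none of the 13 or 14 tested genes passed in any of the 4 experiments by edgeR. At an unadjusted p under 0.05, 7, 6, 4 and 8 passed in B16-BL6, with the Myc-CaP sgUba1 label, with OE and with TAK-243, beside 16.3%, 23.7%, 18.2% and 15% of all genes, and limma-voom called none. DESeq2 called 2, 5, 1 and 3, beside 3.03%, 11.5%, 5.17% and 3.43% of all genes. Their median log2 fold changes were 0.55 in B16-BL6, 0.25 with the Myc-CaP sgUba1 label, -0.12 with OE and 0.51 with TAK-243. Of 14 tested complement genes 1 rose with the Myc-CaP sgUba1 label, C3ar1, the receptor of C3a (0.98 on the log2 scale, adjusted p = 0.0464, edgeR), where 1.15% of all genes were called higher, limma-voom called 1 of the list and DESeq2 called 4, and 1 with TAK-243, Itgam, a chain of complement receptor 3 that neutrophils also carry (0.82, adjusted p = 0.0488, edgeR), where 0.0867% of 17299 genes were called higher. Of the other MS4A genes, 8 passed the filter on low counts with TAK-243, among them Ms4a6d with a log2 fold change of 1.05. This list too was chosen with the TAK-243 response of Ms4a4a known, so its values in that comparison are a description. All 8 had log2 fold changes above 0 with TAK-243 and in B16-BL6. In the order of the 4 experiments above, the medians were 0.44, 0.57, -0.57 and 0.56 for complement and 0.67, 0.53, -0.44 and 0.70 for the other MS4A genes.

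None of the 15 to 17 tested scavenger and phagocytic receptors passed in any of the 4 experiments by edgeR, with medians of 0.48, 0.54, -0.36 and 0.36 in that order. At an unadjusted p under 0.05, 9, 9, 5 and 7 passed, beside 16.3%, 23.7%, 18.2% and 15% of all genes, and DESeq2 called 5, 7, 3 and 2, beside 3.03%, 11.5%, 5.17% and 3.43%. Of 17 other macrophage markers, 2 rose with the Myc-CaP sgUba1 label, the protease gene Ctss (1.17, adjusted p = 0.0345, edgeR) and the receptor gene Sirpa (1.14, adjusted p = 0.0222, edgeR), and 1 fell, Spp1, which encodes osteopontin (-0.90, adjusted p = 0.0467, edgeR). Among all genes 1.15% were called higher there by edgeR. Limma-voom called 2 and DESeq2 6 of these 17, beside 1.85% and 11.5% of all genes. Of 13 tested genes on the activation list, all had log2 fold changes above 0 in B16-BL6, with a median of 0.75, and 1 passed in edgeR, Tgfb1 (0.75, adjusted p = 0.0144). DESeq2 called 2 of them. With the Myc-CaP sgUba1 label, OE and TAK-243 the medians of that list were 0.58, -0.44 and -0.0087, and edgeR called 0 of its 12, 9 and 12 tested genes (5, 3 and 3 had an unadjusted p under 0.05, and DESeq2 called 2, 1 and 2). Ly6c2, a gene of inflammatory monocytes, rose with the Myc-CaP sgUba1 label (2.36, adjusted p = 0.0426, edgeR), as 1 of 9 tested monocyte genes, of which limma-voom called 0 and DESeq2 called 3. The medians over the 4 experiments were 0.42, 0.68, -0.25 and 0.23 for the other macrophage markers and 0.61, 0.78, -0.22 and 0.72 for the monocyte genes. Without labelled replicates 4 to 7 none of C3ar1, Ctss, Sirpa and Spp1 passed (adjusted p of 0.122 to 0.184, edgeR), with log2 fold changes of 0.84, 1.27, 1.02 and -0.89, and Ly6c2 did not pass the filter on low counts.

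Markers of other cells moved with some of these results, and their part in them was not tested. The leukocyte genes Ptprc (1.06, adjusted p = 0.0459, edgeR) and Lcp1 (0.69, adjusted p = 0.0288, edgeR) rose with the Myc-CaP sgUba1 label, 2 of 6 tested, beside 1.15% of all genes called higher. Limma-voom called 1 and DESeq2 called 5, beside 1.85% and 11.5% of all genes. The list summed to 168 to 204 CPM in replicates 1 to 3 and 255 to 299 CPM in replicates 4 to 7, against 96.7 to 181 CPM in the controls. Without replicates 4 to 7 the log2 fold changes were 0.93 for Ptprc and 0.60 for Lcp1 (adjusted p of 0.201 and 0.151, edgeR). The 12 T and NK cell genes summed to 13.8 to 23.7 CPM in replicates 1 to 3, 23.4 to 31.7 CPM in replicates 4 to 7 and 10.8 to 13.8 CPM in the controls. With TAK-243 4 of 6 tested neutrophil genes rose, beside 0.0867% of all genes called higher, among them S100a9 (4.03, adjusted p = 0.0107, edgeR) and Ngp (6.15, adjusted p = 0.0132, edgeR). The list of 8 summed to 18.9 to 35.9 CPM against 8.08 to 12.3 CPM. The neutrophil gene Ly6g had 0 counts in every tumor of the other 3 experiments. The 6 mast cell genes summed to 5.21 to 8.15 CPM with the Myc-CaP sgUba1 label against 8.16 to 22.5 CPM in the controls. With TAK-243 they went the other way, with a median log2 fold change of 1.58 over 4 tested genes. There 3 had an unadjusted p under 0.05, edgeR called 0 and DESeq2 called 1, beside 15%, 0.0867% (higher) and 3.43% of all genes. The sums overlapped, at 2.71 to 13.8 CPM against 3.90 to 10.4 CPM. In B16-BL6 they summed to 50.8 to 65.2 CPM against 72.8 to 107 CPM, but 1 of the 6 passed the filter on low counts there, Kit, which melanocytes also express, at a mean of 58.1 CPM against 84.4 CPM. The 8 endothelial genes summed to 112 to 149 CPM in replicates 1 to 3 of the Myc-CaP sgUba1 label and 220 to 268 CPM in replicates 4 to 7, against 144 to 173 CPM in the controls. The 8 fibroblast genes summed to 1651 to 3105 CPM in replicates 1 to 3 and 1099 to 1752 CPM in replicates 4 to 7, against 870 to 1553 CPM, and the 2 genes of the MHC class II list to 73.5 to 328 CPM and 54.5 to 123 CPM, against 29.2 to 65.5 CPM. Both sums in replicates 1 to 3 lay above all 3 controls.

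Cd74, the invariant chain of MHC class II, fell with OE (-2.56, adjusted p = 0.0425, edgeR), from 112 ± 46.1 CPM (SD, n = 3) to 19.1 ± 1.51 CPM (SD, n = 4). Limma-voom called neither of the 2 tested genes of that list and DESeq2 called both. Krt15, an epithelial keratin on the list of skin keratinocytes, fell with the Myc-CaP sgUba1 label (-4.80, adjusted p = 0.0297, edgeR), and was -4.06 without replicates 4 to 7 (adjusted p = 0.124, edgeR). The 7 genes of that list summed to 189 to 1285 CPM in the Myc-CaP controls, with the keratinocyte genes Krt5, Lor and Flg at 0, and to 1.60 to 77.4 CPM in the labelled tumors.

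**Figure D5:**
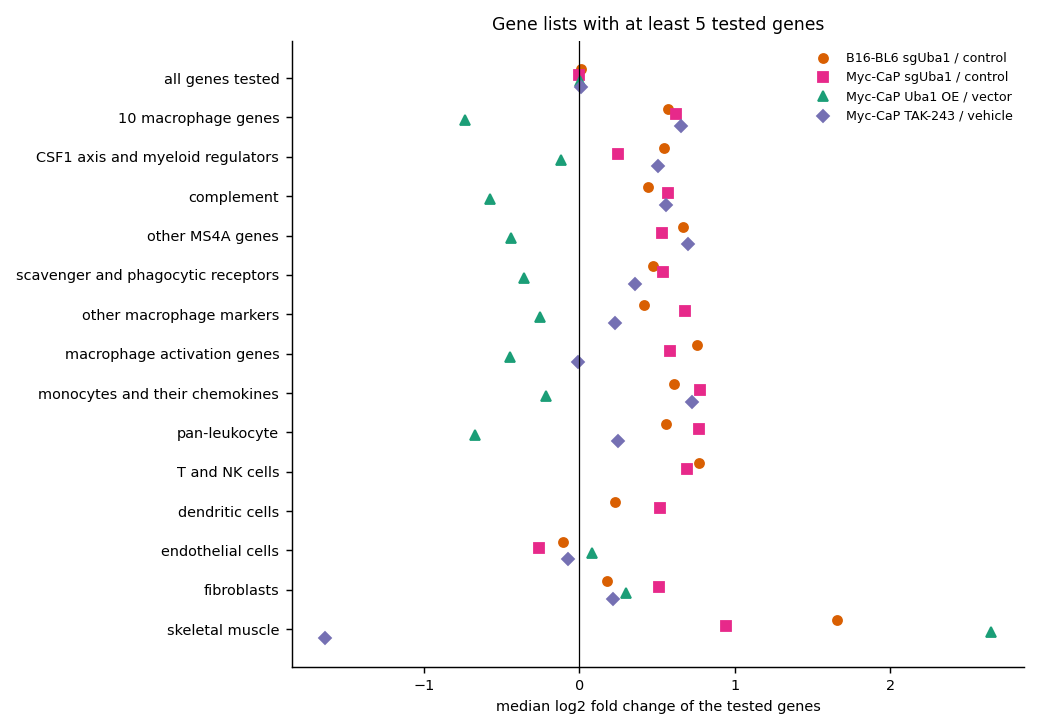
Median log2 fold change of the tested genes of each list with at least 5 tested genes, in the 4 tumor experiments. The 10 macrophage genes stand at 0.57, 0.62, -0.74 and 0.65, and skeletal muscle genes at 1.66, 0.94, 2.65 and -1.63.

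The genes most like the 10 over the 35 tumors were sought among 13311 genes, by the root mean square difference of log2 CPM, centred within each of the 8 groups, from the mean of the 10. The nearest were Pid1, Stab1, P2ry6, Dock11, Plcl2, Nckap1l, Tlr13, Nrp1, Vsir and Dock2, at 0.159 to 0.195. The median gene was at 0.397, and a gene that stayed level within every group would be at 0.333. Stab1 encodes a scavenger receptor of macrophages and endothelium, Tlr13 a receptor of bacterial ribosomal RNA and Nckap1l and Dock2 regulators of actin in blood cells. The order was not firm, since 4 of these 10 were also nearest on log2(TPM + 1). Among the members, each of them part of that mean, C1qc was closest to it (0.131), followed by C1qb (0.140), Csf1r (0.149) and C1qa (0.155). Cd163 was farthest (0.668).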

How the data were processed

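Bulk RNA-seq of 35 tumor and 16 cell libraries was used as deposited. The authors deposited expected counts and TPM per gene, from kallisto on mm10 per the submitters' processing notes, and 31.9% of the count values were not whole, so the counts were rounded. Study methods name a ribosomal depletion kit and the labels a poly-A selection. In each comparison genes were filtered (filterByExpr), scaled by TMM and tested by edgeR's quasi-likelihood test (edgeR 4.0.16, R 4.3.3), within the compared groups, with Benjamini-Hochberg adjustment over all genes and a threshold of 0.05. CPM are TMM-scaled per comparison. A standard error is the log2 fold change over the square root of F, and 95% intervals use the t distribution with the fit's degrees of freedom. Ratios and levels between genes used TPM. Log2 CPM had a prior count of 2. Nearest genes needed a mean log2 CPM of at least 1. The scripts were tested on simulated data.

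The 10 genes and all lists were chosen with earlier results of these data known. No list was tested as a set, and adjusted p of single list genes come from the same fits over all genes. From each list up to 2 genes called in each direction, those farthest from 0, were named. H2-Aa, H2-Ab1, H2-Eb1, H2-DMa, H2-DMb1 and Trac were not analysed here. Alternatives were DESeq2 1.42.0, limma 3.58.1 on voom and on log2(TPM + 1), RLE scaling, no filter, a replicate block, a fit of all 35 tumors and leaving out each tumor. Leaving out sgUba1 replicates 4 to 7, or OE replicates 1 and 2, was chosen after seeing the data. Total counts of 8652097 or more per tumor put a floor of 3 counts below every tumor value of the 10 genes, the lowest being 5.44 estimated counts of Cd163.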

Additional observations from a re-analysis of the deposited data

Results flagged for a closer look

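Among the 10 genes in 5 groups of 4 to 7 tumors, 3 of 50 cases had a tumor far from the rest. That is close to the share that chance gives, about 1 in 20. Vehicle replicate 1 was the lowest of 6 in C1qc (13.0 CPM) and in Csf1r (16.7 CPM). TAK-243 replicate 4 was the highest of 5 in Ms4a4a (9.84 CPM).

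The effects of OE and of the sgUba1 label differed by the test of their difference in 5 of the 10 genes, C1qa (-1.68), C1qb (-1.33), C1qc (-1.38), Adgre1 (-1.93) and Ms4a7 (-2.44 on the log2 scale, adjusted p of 0.00926 to 0.0458, edgeR), beside 4.48% of all genes called in that direction. Without sgUba1 replicates 4 to 7 C1qa alone passed, beside 9.2% of all genes in either direction, and C1qb and C1qc did not pass in 13 and 9 of the 17 fits that left out 1 tumor.

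Outside the tumors, 2 of the genes were higher in cultured Myc-CaP cells with TAK-243 than without it, Cd68 in both pairs of conditions and Csf1r without IFN-γ, in 2 libraries per condition with no test. Cd68, the lysosomal glycoprotein, was 6.54 and 7.93 TPM (mean 7.24 TPM) with TAK-243 and 1.76 and 2.73 TPM without it. With IFN-γ as well it was 8.69 and 9.25 TPM (mean 8.97 TPM), against 2.13 and 2.40 TPM with IFN-γ alone. Csf1r was 3.18 and 3.20 TPM (mean 3.19 TPM) with TAK-243 and 1.01 and 1.03 TPM without it, from 16.3 and 21.5 estimated counts against 6.10 and 6.11. With IFN-γ as well it was 0.764 and 0.796 TPM, between the 0.577 and 0.971 TPM of IFN-γ alone. In cells with sgUba1 Cd68 averaged 4.56 TPM against 4.27 TPM with the control guide, and 2.91 against 3.42 TPM with IFN-γ. Csf1r averaged 1.14 against 1.95 TPM without IFN-γ and 1.55 against 1.08 TPM with it. Csf1r shares sequence with Hmgxb3 on the opposite strand, and the part of that overlap was not tested.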

How the results depend on the processing

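With 3 to 7 tumors a group, the counts of called genes moved with single tumors and with the tool. Shares of all genes are in either direction. DESeq2 called 4 genes in B16-BL6 (3.03% of all genes), 5 for the Myc-CaP label (11.5%), 1 in the difference between the models (8.29%) and 6 in that of OE and sgUba1 (15.5%). Without a filter 2 were called in B16-BL6 (0.813%), and the fit of all 35 tumors called 0 there by edgeR (4 had an unadjusted p under 0.05, beside 6.17%). Without sgUba1 replicates 4 to 7, 0 were called for the Myc-CaP label (0.00638%) and 1 in the difference of OE and sgUba1 (9.2%), and without OE replicates 1 and 2, 3 in that difference (2.5%). Ms4a7 for the Myc-CaP label missed the threshold in limma-voom and without a filter.

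Replicate numbers were not used as pairs in the main tests. The correlations of same-numbered deviations ran from -0.18 to 0.31, and the lowest fell below 0.1 in each experiment. Low correlations cannot show whether same-numbered tumors share a mouse or a batch. With a replicate block 0 genes were called by edgeR in B16-BL6, for the Myc-CaP label and for OE, against 1, 4 and 0, and Cd68 in B16-BL6 was -0.013. An unadjusted p under 0.05 was found for 7, 4 and 7 genes with the block, beside 15.5%, 15% and 18.4% of all genes, and for 6, 6 and 4 without it.

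Directions turned in the following cases. Cd163 for the Myc-CaP label was -0.0071 in DESeq2, Mrc1 with OE was -0.032 on log2(TPM + 1), and Cd68 with OE was 0.051 without OE replicates 1 and 2. In the difference between the models Csf1r was 0.055 in limma-voom and 0.079 on log2(TPM + 1), and Cd163 was 0.31 in limma-voom and 0.35 without sgUba1 replicates 4 to 7. In the difference of OE and sgUba1, Cd163 was -0.056 in limma-voom and Mrc1 0.14 without OE replicates 1 and 2. On log2(TPM + 1) Cd163 with TAK-243 was 0.83, beside 1.29. The cause was not tested.

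Leaving out 1 tumor gave 0 to 7 called genes (0.242% to 1.85% of all genes) and medians of 0.37 to 0.89 in B16-BL6, where Cd68 ran from -0.0012 to 0.50. For the Myc-CaP label it gave 0 to 4 called genes (0.0601% to 4.29%) and medians of 0.47 to 1.0, with Mrc1 from -0.17 to 1.0, Cd163 from -0.55 to 1.87 and Ms4a4a from -0.81 to 0.57. For OE it gave 0 called genes by edgeR (0% to 2.62%) and medians of -1.05 to -0.50, with Mrc1 from -0.19 to 0.27. In these OE fits 1 to 9 of the 10 had an unadjusted p under 0.05, beside 11% to 21.8% of all genes. For TAK-243 it gave medians of 0.53 to 0.81 and Ms4a7 from -0.098 to 0.34.

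For the difference between the models it gave 0 to 1 called genes (0.162% to 3.67%) and medians of -0.18 to 0.50, with C1qa from -0.058 to 0.45, C1qb from -0.31 to 0.34, C1qc from -0.031 to 0.46, Csf1r from -0.45 to 0.54, Mrc1 from -0.89 to 0.29 and Cd163 from -0.97 to 1.44. For the difference of OE and sgUba1 it gave 3 to 6 called genes (4.46% to 12.7%) and medians of -1.59 to -1.02, with Mrc1 from -0.93 to 0.24, Cd163 from -1.04 to 1.37 and Ms4a4a from -1.33 to 0.049.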
